A study of Mus musculus with 9 samples.

Results

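The 10 genes described here encode proteins by which astrocytes take up glutamate, couple to one another, pump ions and handle lipids, folate and sulfur. They are Gja1, Clu, Slc1a3, Aldoc, Atp1b2, Acsbg1, Apoe, Glul, Cbs and Aldh1l1. They were picked by symbol out of 14771 named genes: every row of the table whose RefSeq accession belongs to 1 of these symbols was taken, and rows of a symbol were added. All 10 have at least 1 row. The question was which of these astrocyte functions the astroglia of the series hold or lack, and which the tumour cells hold.

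The series holds mRNA libraries of 9 mouse samples, 3 per group. The astroglia (AG_1, AG_2, AG_3) are brain cells of strain C57BL/6 with the genotype p53 DN, Nf1 shRNA. The brainstem tumour cells (BS_287, BS_295, BS_296) and the olfactory bulb tumour cells (OB_257, OB_287, OB_295) come from a 129;C57BL/6 mix with the genotype Foxr2 overexpression, p53 cko. By these labels p53 is altered in every group, and the astroglia are not wild-type astrocytes. AG differs from both tumour groups in strain, in genotype and possibly in culture history at once, and these cannot be told apart in any comparison with AG. The labels give neither the age of the mice, nor the promoter behind an allele, nor whether each library of a group is a culture or animal of its own. P-values therefore reflect only how far these libraries scatter, in part perhaps for technical reasons.

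Astrocytes clear glutamate and potassium from around synapses, convert glutamate to glutamine, supply neurons with lipid particles and share small molecules through gap junctions. Radial glia, the stem cells that give rise to neurons and glia, already carry part of this equipment, above all the glutamate transporter Slc1a3 and the fatty acid binding protein Fabp7. The genes listed above are therefore read as single functions, and not as a label of cell identity.

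Levels are given as normalized reads, which are whole reads divided by 1 size factor per library, in the order of the library titles within each group. Between 11300273 (OB_257) and 19868282 (AG_1) reads were recovered per library. Genes with several annotated RefSeq transcripts have low values in this table: the median row mean was 259 for genes with 1 transcript, 12.6 with 2 and 6.81 with 3 or more. Gja1, Clu, Slc1a3, Atp1b2, Acsbg1 and Glul have 1 transcript, while Aldoc, Apoe, Cbs and Aldh1l1 have several, so that low values of the latter 4 are not read as low expression. Levels were compared between libraries and not between genes, because no gene lengths enter the values. Shares of the reads of a gene family, given below, are likewise read across libraries, and do not rank the members of a family. Of the tumour libraries, OB_257 stands apart on the second principal component (-142.7 against 3.2 to 48.5 in the other tumour libraries) and BS_287 on the third (-115.1 against -7.3 to 52), so results that rest on either are also given without it.

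The tissue labels were set against markers of other cells. In the 3 AG libraries, 7 fibroblast genes summed to between 35658 and 46422 normalized reads. Nearly all of this was Col1a1, a collagen chain of connective tissue, at 40954 ± 5404 (SD, n = 3). Col1a2 averaged 246 and Col3a1 127, while Dcn, Pdgfra, Postn and Lum averaged at most 15.5. Acta2, the actin of smooth muscle, stood at 53782 ± 1881. The fibroblast sum was 11.1 to 218 in the 6 tumour libraries, where Dcn and Postn were at 0 reads. Pdgfra and Lum did not average lower there: they stood at 7 and 1.99 in AG, 25.9 and 2.11 in BS, and 39.3 and 2.9 in OB. Gfap, the filament protein that defines many astrocytes, stood at 0.834, 2.96 and 3.27 in AG, and Aqp4, the astrocyte water channel, reached at most 1.97 in any library, but both have several annotated transcripts, 2 and 9. Sox9, a transcription factor of astrocytes and their precursors with 1 transcript, was present in AG at 2947, 2605 and 2328. In the tumour libraries 9 genes of oligodendrocyte precursors summed to between 55795 and 125531, against 25.8 to 30.6 in AG, where Olig2 and Ptprz1 were at 0 reads. The part of these other cell programmes in the results below was not tested, and in bulk RNA fewer cells of a type and less RNA per cell cannot be told apart.

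The astrocyte genes did not move as a block. Relative to AG, Atp1b2, Glul, Aldoc and Cbs rose in both tumour groups, Clu fell in both, Acsbg1 rose in BS and Gja1 fell in OB. Slc1a3, Acsbg1 and Gja1 separated the tumour libraries from each other: all of them were far lower in OB_257 than in the other 5 tumour libraries. Apoe differed little between the groups, and Aldh1l1 was near 0 in the table. In the plot of levels by library, the 3 AG values of a gene lie close together while the tumour values of Gja1, Slc1a3 and Acsbg1 spread over more than a decade.

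**Figure D1:**
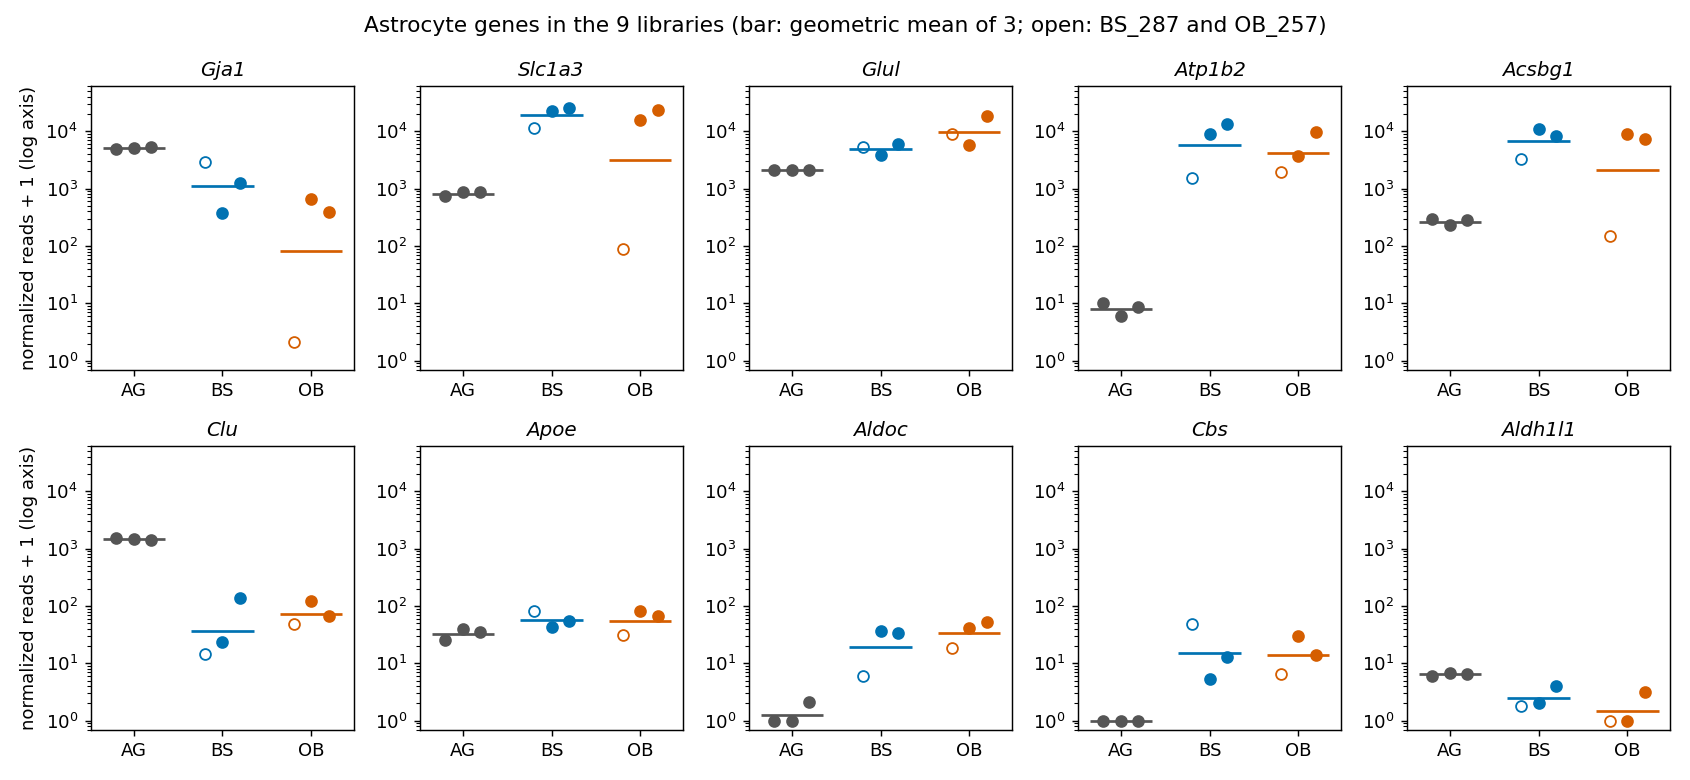
Normalized reads + 1 of the 10 astrocyte genes on a log axis, 1 point per library and 1 panel per gene, for AG (astroglia), BS (brainstem tumour) and OB (olfactory bulb tumour). Bars are geometric means of the 3 libraries; open points are BS_287 and OB_257. Atp1b2 lies below 10 in every AG library and above 1500 in every tumour library, while the open OB point is the lowest tumour value for Gja1, Slc1a3 and Acsbg1.

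Of the 10 genes, 9 reached 10 normalized reads in at least 3 libraries and were tested with limma in 1 fit over 10576 genes. Aldoc, Atp1b2 and Cbs stayed below 10 in every AG library and passed this filter only through the tumour libraries, so they had to be higher there, and the counts over the genes tested are a description. In OB against AG 4 of 9 passed upward and 2 downward, where 34.9% of all genes tested passed in either direction (16.0% upward, 19.0% downward). In BS against AG 5 of 9 passed upward and 1 downward, where 35.1% of all genes passed (15.6% upward, 19.5% downward). The median difference of the 9 genes was 2.22 in OB against AG and 3.90 in BS against AG on the scale of log2(normalized reads + 1), on which all differences below are given, beside -0.01 and -0.03 over all genes tested. That scale understates the change of low genes. Both comparisons share the same 3 AG libraries, so their values are set side by side and are not independent of each other.

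Counted by ranges, 7 of the 10 genes had no overlap between OB and AG, and 10 of 10 had none between BS and AG. Over all 10576 genes tested, 58.3% had no overlap between OB and AG and 58.4% between BS and AG, so the count in OB lies near that share. The 3 that overlap in OB are Slc1a3, Acsbg1 and Apoe, each through OB_257. Without OB_257, 9 of 9 genes passed in OB against AG, 7 upward and 2 downward, where 35.6% of all genes passed (16.4% upward, 19.2% downward). Without BS_287, 5 of 9 passed in BS against AG, 4 upward and 1 downward, where 34.2% of all genes passed. Without both OB_257 and BS_287, 7 of 9 passed there, 5 upward and 2 downward, but the share of all genes was then also higher, at 45.6%. OB and BS overlapped for all 10 genes (9.99% of all genes tested had no overlap), and 0 of 9 passed between them, where 0.00% of all genes tested passed by limma and 1019 genes lay at an unadjusted p under 0.05. edgeR called 0 genes and DESeq2 called 233 in that comparison.

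**Figure D2:**
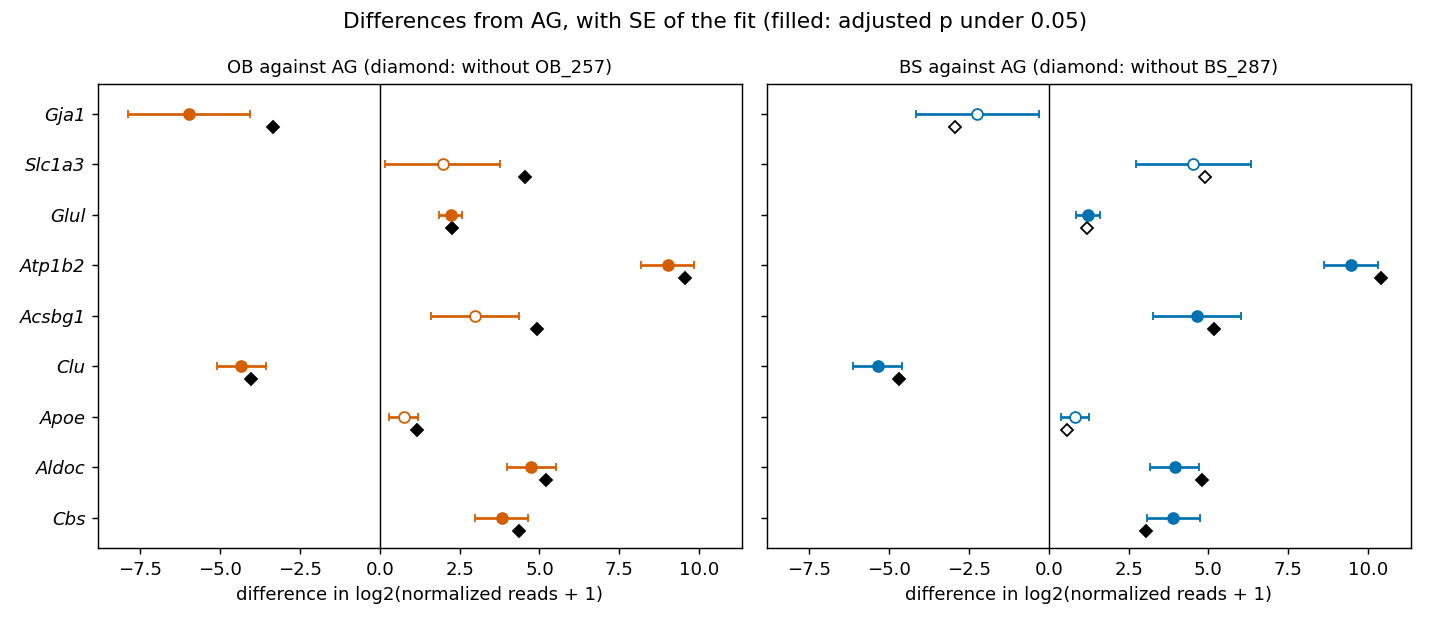
Differences from AG in log2(normalized reads + 1) for the 9 genes tested, with OB on the left and BS on the right; error bars are the SE of the limma fit over 9 libraries and filled symbols have an adjusted p under 0.05. Diamonds below each point are the same difference without OB_257 (left) or without BS_287 (right). For Slc1a3 in OB the difference moves from 1.97 to 4.55, and for Gja1 from -5.97 to -3.33.

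The start regions of 4 of these genes are shown because 3 of them (Gja1, Slc1a3 and Acsbg1) were low together in OB_257 while the fourth, Glul, was not. Each is the RefSeq window of build GRCm38.p6 from 250 bases before to 50 bases after an annotated gene start, written 5′ to 3′ on the strand of the gene. Of the 10 genes, 8 had such a window; Clu and Atp1b2 had none. Capitals mark matches on either strand to 6 short motifs: TGANTCA (AP-1), TGCCAA (an NFI core), CAGCTG (an E-box), ACAAT (the SOX core), TTCCCA (the RBPJ core) and TATAAA (the TATA box).
Gja1: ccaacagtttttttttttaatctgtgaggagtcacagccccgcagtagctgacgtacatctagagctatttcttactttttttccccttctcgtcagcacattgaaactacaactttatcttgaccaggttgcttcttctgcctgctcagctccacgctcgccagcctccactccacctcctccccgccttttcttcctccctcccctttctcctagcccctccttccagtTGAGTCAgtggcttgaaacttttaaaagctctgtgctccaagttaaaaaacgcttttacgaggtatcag
Slc1a3: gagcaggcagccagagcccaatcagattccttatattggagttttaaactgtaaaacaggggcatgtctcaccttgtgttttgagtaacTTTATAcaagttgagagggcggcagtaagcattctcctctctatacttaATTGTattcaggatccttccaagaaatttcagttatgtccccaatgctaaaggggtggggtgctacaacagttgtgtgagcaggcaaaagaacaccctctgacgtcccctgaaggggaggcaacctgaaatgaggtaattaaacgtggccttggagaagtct
Acsbg1: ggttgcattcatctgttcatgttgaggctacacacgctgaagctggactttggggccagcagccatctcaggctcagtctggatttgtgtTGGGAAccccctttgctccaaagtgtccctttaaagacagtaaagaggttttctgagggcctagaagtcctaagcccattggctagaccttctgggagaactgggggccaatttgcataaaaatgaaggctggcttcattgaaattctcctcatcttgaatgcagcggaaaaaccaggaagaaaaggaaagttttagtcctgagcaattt
Glul: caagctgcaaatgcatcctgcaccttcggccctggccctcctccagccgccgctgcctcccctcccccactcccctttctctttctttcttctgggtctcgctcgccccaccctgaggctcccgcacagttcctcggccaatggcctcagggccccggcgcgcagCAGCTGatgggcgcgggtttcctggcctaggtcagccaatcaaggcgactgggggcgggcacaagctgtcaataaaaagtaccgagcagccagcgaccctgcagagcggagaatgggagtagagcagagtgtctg

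The Gja1 window (chr10:56377050-56377349, plus strand) held 1 AP-1 match, 19 bases before the start, a motif present in 7.81% of 32851 promoter windows of the same length. The Slc1a3 window (chr15:8710758-8711057, minus strand) held a SOX core 112 bases and a TATA box 161 bases before the start, both read on the opposite strand. These motifs occur in 31% and 13.6% of promoter windows. The Acsbg1 window (chr9:54661836-54662135, minus strand) held an RBPJ core 160 bases before the start, found in 25.6% of windows. The Glul window (chr1:153899679-153899978, plus strand) held an E-box 85 bases before the start, found in 16.3%. No motif was shared by Gja1, Slc1a3 and Acsbg1 in these windows, which says only that the letters searched are not common to them.

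Slc1a3 is the glutamate and aspartate transporter of radial glia and astrocytes, and it differed widely among the tumour libraries. It stood at 753, 855 and 854 normalized reads in AG, at 11447, 22694 and 25665 in BS, and at 88.4, 15575 and 23699 in OB. All 3 BS libraries and 2 of the OB libraries lay above AG, and OB_257 lay below it. Slc1a3 averaged 821 ± 58.7 in AG, 19935 ± 7500 in BS and 13121 ± 11995 in OB. The difference was 4.52 ± 1.80 (SE) in BS against AG, which missed the threshold (limma adjusted p = 0.0836), and 1.97 ± 1.80 in OB against AG (limma adjusted p = 0.429). Without OB_257 the OB difference was 4.55 with a limma adjusted p of 7.93e-05. It was 0.83 without OB_287 and 0.52 without OB_295, with limma adjusted p of 0.772 and 0.851. Without BS_287 alone the BS difference of 4.88 did not pass (limma adjusted p = 0.116), and without OB_257 as well the same difference had 6.62e-06. A fit of AG and BS alone, in which OB_257 has no part in the shared spread, gave a limma adjusted p of 0.000115 for BS, and edgeR gave 0.0323 for BS and 0.0474 for OB.

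Slc1a3 belongs to a small family, and its part in that family differed between the libraries. Its share of the reads of 4 Slc1 genes in the table was 24.2% to 26.4% in AG, 60.4% to 81.6% in BS, 64% in OB_287 and 71.2% in OB_295, but 0.719% in OB_257. There the neutral amino acid transporters Slc1a4 and Slc1a5 held 55.6% and 31%, and the neuronal glutamate transporter Slc1a1 held 12.7%. Slc1a1 stood at 2.5, 5.91 and 0 normalized reads in AG, at 22.6, 354 and 382 in BS and at 1566, 266 and 5558 in OB. It rose by 8.84 in OB (limma adjusted p = 0.00164) and by 5.67 in BS (limma adjusted p = 0.0144), with no overlap with AG in either group. The BS call of Slc1a1 ended without AG_3 or BS_296 (limma adjusted p up to 0.0612).

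Glul, glutamine synthetase, turns the glutamate taken up by such transporters into glutamine. It had 2134, 2068 and 2121 normalized reads in AG, 5294, 3871 and 5942 in BS, and 9046, 5718 and 18188 in OB. Every tumour library, OB_257 included, lay above every AG library. Glul rose 5.21-fold by means in OB, from 2108 ± 35.1 to 10984 ± 6457, a difference of 2.22 ± 0.37 (limma adjusted p = 0.00225). In BS it rose 2.39-fold, to 5036 ± 1059, a difference of 1.23 ± 0.37 (limma adjusted p = 0.033). The BS call ended when AG_1, AG_2, AG_3, BS_287 or BS_296 was left out, with limma adjusted p between 0.0737 and 0.0969 and differences between 1.10 and 1.24. OB exceeded BS by 0.98, which did not pass (limma adjusted p = 0.467), and OB_287 lay below BS_296.

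Other genes of glutamate and transmitter uptake went upward where they passed. Of 11 listed genes 9 were tested, and 3 rose and 0 fell in OB, against 4 and 0 in BS. The median difference was 1.58 in OB and 1.38 in BS. This count and those of the lists below stand beside the share of all genes tested that passed. That share was 34.9% in OB (16.0% upward, 19.0% downward) and 35.1% in BS (15.6% upward, 19.5% downward). The uptake count in OB lies near it. Slc1a4 rose by 1.58 in OB and 1.30 in BS, and Slc1a5 by 1.59 and 1.38. Slc6a11, the GABA transporter of astrocytes, ranged from 0.839 in BS_287 and 0 in OB_257 to 8467 in OB_295. Slc25a18, the mitochondrial glutamate carrier of astrocytes, stood at 193, 153 and 140 in AG and at 1091 to 2919 in the other 5 tumour libraries, but at 21 in OB_257. These last 2 genes did not pass in either comparison and are named after their values were seen. Without OB_257, 6 of 9 listed genes rose in OB, and without OB_257 and BS_287, 6 rose and 1 fell in BS. Left out singly, each AG library reduced the BS count from 4 to 2 and BS_296 reduced it to 1. Calls over all genes in BS also fell when 1 library was left out, from 3712 to between 2001 and 3562. Slc1a5 lost its call in both comparisons without any 1 of the AG libraries, and in BS also without BS_287 or BS_296, while Slc1a4 lost its BS call without AG_1 or AG_2.

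Atp1b2 encodes the beta subunit of the sodium pump that glia use, and it gave the largest difference of the 10 genes. It stood at 9.17, 4.93 and 7.62 normalized reads in AG, at 1522, 8925 and 13482 in BS, and at 1978, 3641 and 9799 in OB. The AG libraries were near the floor of the table and every tumour library was far above them, with BS_287 and OB_257 the lowest. Atp1b2 rose 710-fold by means in OB, to 5139 ± 4120, and 1102-fold in BS, to 7976 ± 6036, from 7.24 ± 2.15 in AG. The differences were 9.01 ± 0.84 in OB (limma adjusted p = 9.86e-05) and 9.46 ± 0.84 in BS (limma adjusted p = 7.22e-05). Leaving out 1 library at a time kept them between 8.38 and 9.54 in OB and between 8.84 and 10.41 in BS.

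Reads of the beta subunits of the pump divided differently between the groups. Atp1b2 made up 0.578% to 1.09% of the reads of 3 beta subunit genes in AG and 83% to 99.1% in the tumour libraries. Atp1b1, the beta subunit found in most tissues, made up 98.3% to 98.7% in AG. Atp1b1 itself went from 824, 842 and 844 normalized reads in AG to 307, 416 and 127 in BS and 59.7, 274 and 212 in OB. It fell by 2.46 in OB (limma adjusted p = 0.014, but up to 0.0508 without AG_2 or AG_3), and its difference of -1.72 in BS missed the threshold (limma adjusted p = 0.0564). Atp1b3 has 3 annotated transcripts and is counted here at its low values, at most 12.4.

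**Figure D3:**
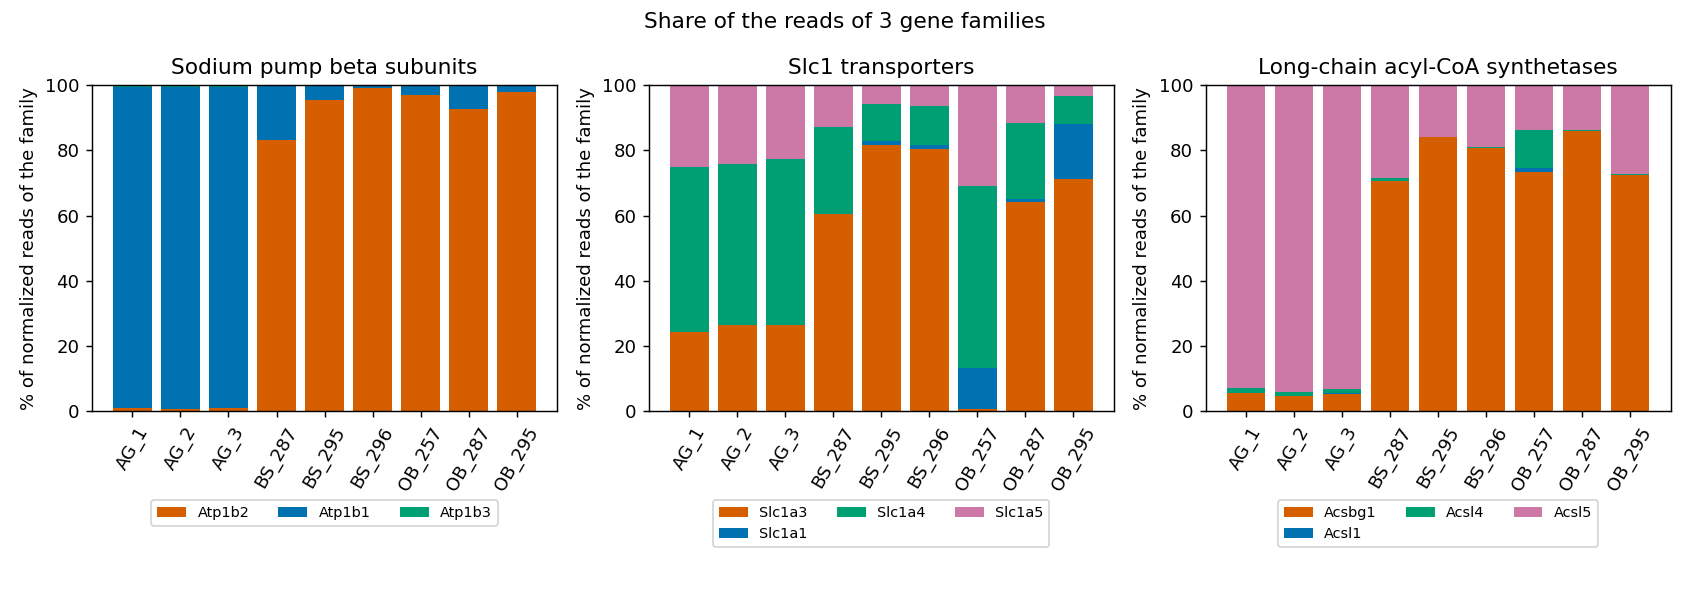
Share of the normalized reads of 3 gene families, in percent, in each of the 9 libraries: sodium pump beta subunits, Slc1 transporters and long-chain acyl-CoA synthetases, stacked to 100. Orange marks the astrocyte gene of each family; it covers at most 1.09% of the beta subunits in AG and at least 83% in the tumour libraries, and it is all but missing from the Slc1 transporters of OB_257 (0.719%).

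Another gene of ion handling was near 0 in AG and high in the tumours, as Atp1b2 was. Like Atp1b2, it passed the filter only through the tumour libraries and could only be higher there. Kcnj10, the potassium channel by which glia buffer potassium, went from 1.2 ± 1.25 in AG to 2180 ± 2162 in BS and 2676 ± 1693 in OB, and passed in both (limma adjusted p = 7.01e-05 and 5.34e-05). Of 12 listed genes of ion and water homeostasis only 4 were tested; 2 rose and 1 fell in each comparison, and the median difference was 3.72 in OB and 3.38 in BS. The gene that fell in OB was Atp1b1. Over the 9 libraries, Adgrb3 was among the 2 genes tested whose centred log2 profile lay nearest to that of Atp1b2, with a root mean square distance of 0.76.

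Gja1 encodes the main connexin of astrocyte gap junctions, and it was highest in the astroglia. It stood at 4961, 5105 and 5396 normalized reads in AG, at 2879, 369 and 1231 in BS, and at 1.11, 662 and 395 in OB. Every tumour library lay below AG, BS_287 came closest, and OB_257 had a single read. Gja1 fell 14.6-fold by means in OB, from 5154 ± 221 to 353 ± 333, a difference of -5.97 ± 1.92 (limma adjusted p = 0.0412). In BS the mean was 1493 ± 1275 and the difference -2.23 ± 1.92, which did not pass (limma adjusted p = 0.401). The OB call ended when any 1 AG library was left out, with a limma adjusted p between 0.105 and 0.108. The difference itself stayed between -6.00 and -5.94, and calls over all genes fell in these fits too, from 3695 to between 2086 and 2098. edgeR gave an adjusted p of 0.06 for OB. Leaving out OB_257 reduced the difference to -3.33 but kept the call (limma adjusted p = 0.00994), and in BS the difference without BS_287 was -2.93, which did not pass (limma adjusted p = 0.346) unless OB_257 was left out too (limma adjusted p = 0.0025).

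Among the connexins in the table Gja1 took 97.7% to 98.2% of the reads in AG and 95.9% in BS_287. The share was 6.37% in BS_295, 48.8% in BS_296, 35.3% in OB_287, 4.24% in OB_295 and 0.00751% in OB_257. The rest was mostly Gjc3, a connexin of the oligodendrocyte lineage, which stood at 1.67, 0 and 1.09 in AG, at 0, 5394 and 1219 in BS and at 14685, 1142 and 8887 in OB. Gjc3 rose by 11.55 in OB (limma adjusted p = 0.0124), and its difference of 6.72 in BS did not pass (limma adjusted p = 0.092). Gjc3 has 2 annotated transcripts, so its share may be understated. BS_287, which had no Gjc3 read, had the highest Gja1 of the tumours, and OB_257, with the most Gjc3, the lowest.

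Of 9 listed genes of coupling and cell contact 6 were tested, of which 3 rose and 2 fell in OB and 2 rose and 2 fell in BS; the medians were 0.84 and 0.96. Hepacam, an adhesion protein of astrocyte contacts, went from 0, 1.97 and 1.09 normalized reads in AG to 5.03, 5338 and 2291 in BS and to 38.7, 344 and 2227 in OB. It rose by 7.41 in OB (limma adjusted p = 0.0452) and by 7.83 in BS (limma adjusted p = 0.0369). Panx1, a channel protein related to connexins in form, rose by 2.06 in OB and 1.74 in BS. Tjp1, a scaffold of tight junctions with 2 annotated transcripts, fell by 1.66 in OB and 1.72 in BS. Gjc1 fell in OB (-2.56) and Gja4 in BS (-3.02). Calls in this list were fragile. The OB count of 5 became 2 without AG_1 and 3 without AG_2, AG_3 or OB_295. The BS count of 4 became 2 without AG_2. Calls over all genes fell as well without 1 AG library, in OB from 3695 of 10576 tested to between 2086 and 2098. Hepacam lost its call without any 1 AG library and without OB_287, OB_295, BS_295 or BS_296 in the comparison concerned, with limma adjusted p up to 0.134. Gjc1 lost it without any AG library, OB_257 or OB_295, Gja4 without AG_2, and Tjp1 in OB without AG_1. The nearest profiles to Gja1 were those of Ccdc80 (distance 0.49) and Bag3 (0.65), and Ccdc80 was at 0 in OB_257.

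Acsbg1 is a long-chain acyl-CoA synthetase of brain, which activates fatty acids for further use. It had 289, 230 and 283 normalized reads in AG, 3324, 11129 and 8138 in BS, and 146, 8938 and 7189 in OB. As with Slc1a3, 5 tumour libraries lay above AG and OB_257 below. Acsbg1 rose 28.2-fold by means in BS, from 267 ± 32.8 to 7530 ± 3938, a difference of 4.65 ± 1.38 (limma adjusted p = 0.0304). The OB mean was 5424 ± 4654 and the difference 2.98 ± 1.38 (limma adjusted p = 0.126), but 4.91 without OB_257 (limma adjusted p = 0.000173). The BS call ended without AG_1, AG_2, AG_3, BS_295 or BS_296, with limma adjusted p between 0.0805 and 0.0905. edgeR gave 0.0208 for OB.

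Shares of reads among the acyl-CoA synthetases differed between AG and the tumours as well. Acsbg1 made up 4.76% to 5.71% of the reads of 4 acyl-CoA synthetase genes in AG and 70.6% to 85.9% in the tumour libraries. That includes 73.3% in OB_257, where both Acsbg1 and Acsl5 were low. Acsl5 held 92.8% to 94.2% in AG. The other members, Acsl1 and Acsl4, have 2 and 3 annotated transcripts, so their part may be understated and the shares of Acsbg1 and Acsl5 overstated. Acsl5 stood at 4701, 4542 and 4833 normalized reads in AG, at 1347, 2103 and 1923 in BS and at 27.6, 1435 and 2720 in OB, and it passed in neither comparison (limma adjusted p = 0.107 in OB and 0.474 in BS). The genes nearest in profile to Acsbg1 were Actn2 (0.35) and Garem2 (0.52), and Slc1a3 was the nearest of the other 9 astrocyte genes (0.77). Actn2 and Garem2 show the same break: they stood at 0 and 153 in OB_257, and at 15.9 to 59 and 2492 to 7496 in the other tumour libraries.

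**Figure D4:**
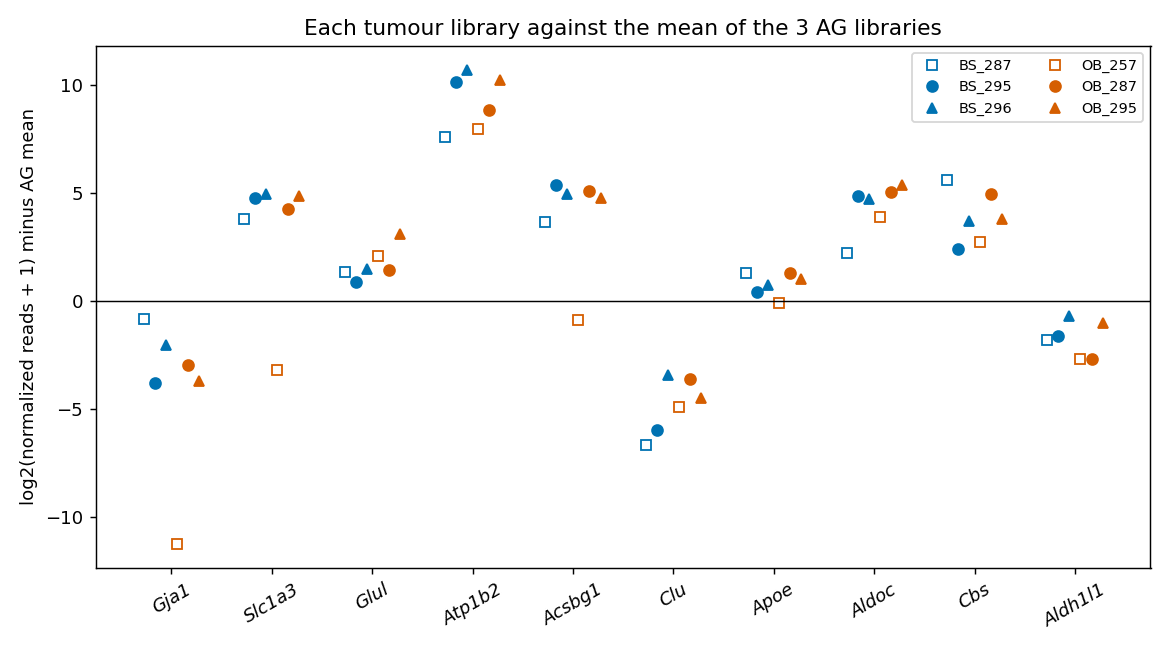
Each of the 6 tumour libraries as its log2(normalized reads + 1) minus the mean of the 3 AG libraries, for the 10 astrocyte genes; blue is BS, orange OB, and open squares are BS_287 and OB_257. OB_257 lies at -11.26 for Gja1, -3.2 for Slc1a3 and -0.86 for Acsbg1, but at 7.94 for Atp1b2 and 2.1 for Glul, among the other tumour libraries.

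OB_257 was low in some astrocyte genes and not in others. It had little Gja1, Slc1a3 or Acsbg1, but its Atp1b2 (1978), Glul (9046), Aldoc (17.7), Cbs (5.53) and Clu (47.5) lay within the range of the other tumour libraries. Sox9 stood at 25.4 in OB_257, against 2836 and 5229 in OB_287 and OB_295 and 2961 to 4398 in BS, and it passed in neither comparison. S100b, a calcium-binding protein of astrocytes and oligodendrocyte cells, stood at 6616 in OB_257, and at 180 and 5555 in the other OB libraries. Sox9 is named after its values were seen. In the same library 8 genes of mature oligodendrocytes summed to 28808 normalized reads, against 169 to 9786 in the other tumour libraries, with Cldn11 at 10013 and Myrf at 15866. The 7 genes of radial glia and stem cells in the table summed to 8765 in OB_257, against 70726 to 102526 in the other tumour libraries and 32254 to 33698 in AG. The AG sum was mostly Vcam1 (18310, 18944 and 20283), and Hes5 and Nr2e1 had 0 reads in AG. OB_257 lay below every AG library for Vcam1 (5.53) and Nes (2360). It lay above every AG library for Sox2 (5133), Msi1 (616), Fabp7 (456), Nr2e1 (160) and Hes5 (34.3). How far either programme accounts for the low Gja1, Slc1a3 and Acsbg1 was not tested.

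Clu, clusterin, is a secreted chaperone and lipid carrier of astrocytes. It had 1534, 1482 and 1391 normalized reads in AG, 13.4, 22.4 and 137 in BS, and 47.5, 120 and 65.2 in OB. The tumour libraries lay about a decade or more below AG, and BS and OB overlapped. Clu fell 18.9-fold by means in OB, from 1469 ± 72.7 to 77.5 ± 37.7 (difference -4.33 ± 0.76, limma adjusted p = 0.00278). In BS Clu fell 25.5-fold, to 57.6 ± 68.9 (difference -5.35 ± 0.76, limma adjusted p = 0.000949). Both calls held without any single library, with differences from -4.70 to -4.04 in OB and from -6.32 to -4.69 in BS. Ism1 (0.37) and St8sia6 (0.48) were nearest in profile.

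Apoe, the main lipid carrier protein of brain, did not follow Clu. It had 25, 38.4 and 33.8 normalized reads in AG, 79.7, 42.7 and 54.2 in BS, and 29.8, 79.9 and 66.3 in OB. BS lay above AG without overlap, while OB_257 lay within AG. The means were 32.4 ± 6.81 in AG, 58.8 ± 18.9 in BS and 58.7 ± 25.9 in OB. The differences of 0.75 ± 0.45 in OB and 0.82 ± 0.45 in BS did not pass (limma adjusted p = 0.232 and 0.195). Without OB_257 the OB difference was 1.16 (limma adjusted p = 0.0494). Apoe has 4 annotated transcripts, of which 3 are in the table, so its low level is not read as low expression.

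The other genes of lipid handling split. Of 15 listed genes 6 were in the table and tested; 2 rose and 2 fell in OB, and 2 rose and 1 fell in BS, with medians of 0.11 and -0.02. Fabp7, the fatty acid binding protein of radial glia, rose by 8.44 in OB (limma adjusted p = 0.0062) and 9.57 in BS (limma adjusted p = 0.00344). It stood at 456 in OB_257 and 1677 in BS_287, against 16822 to 50285 in the other tumour libraries and 16.7 to 22.7 in AG. Abcg1, a sterol exporter, rose by 5.04 in OB and 3.86 in BS. It reached 10 normalized reads only in tumour libraries and could only be higher there. Lrp1, a receptor that takes up Apoe particles, went from 69299 in AG to 8014 in BS and 3878 in OB on average, and fell by 4.28 in OB (limma adjusted p = 0.000675) and fell by 3.39 in BS (limma adjusted p = 0.00228). Abca1, which loads lipid onto Apoe, fell in OB (-4.43, limma adjusted p = 0.0365) and had -3.66 in BS, which did not pass (limma adjusted p = 0.0703). The Abca1 call ended without any 1 AG library or OB_287 (limma adjusted p up to 0.0991), and that of Abcg1 in BS without AG_1, AG_2 or BS_287 (up to 0.0883).

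Aldoc is the aldolase of astrocytes in the adult brain. Its 2 transcripts summed to 0, 0 and 1.09 normalized reads in AG, 5.03, 36.3 and 32.5 in BS, and 17.7, 40.9 and 51.1 in OB. The AG libraries held 1 read between them, and every tumour library held more. Aldoc averaged 36.6 ± 17.1 in OB and 24.6 ± 17.1 in BS, and the ratio of reads to AG was 115 in OB (exact 95% interval 20.3 to 4603) and 72.7 in BS (12.6 to 2911), intervals that cover counting error only. The differences were 4.75 ± 0.77 in OB (limma adjusted p = 0.00181) and 3.94 ± 0.77 in BS (limma adjusted p = 0.00481). Aldoa, the aldolase of most cells, has 3 annotated transcripts and averaged 22.5 in OB, 33.9 in BS and 45.6 in AG. It passed in neither comparison (limma adjusted p = 0.0669 in OB and 0.394 in BS).

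Energy genes other than Aldoc moved less. Of 10 listed genes of glycolysis, glycogen and lactate 9 were tested. In OB 0 rose and 2 fell, and in BS 1 rose and 2 fell, with medians of -0.31 and 0.03. The OB count lies under the 34.9% of all genes that passed there, and the BS count near the 35.1%. Slc2a1, a glucose transporter, fell by 1.67 in OB and 1.80 in BS. Pygb, the brain form of glycogen phosphorylase, fell by 1.24 and 1.22. Ppp1r3c, which targets glycogen synthesis, rose in BS (2.31, limma adjusted p = 0.0169) and had 96.2 in OB_257 against 458 and 547 in the other OB libraries. The calls of Ppp1r3c and Pygb ended without any 1 AG library. That of Ppp1r3c also ended without BS_295, and that of Pygb without OB_257 or OB_287 in OB and without BS_287 or BS_295 in BS, with limma adjusted p up to 0.105. The count of the list was then 1 in either comparison without an AG library, and 1 in BS without BS_295.

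Cbs, cystathionine beta-synthase, opens the path from homocysteine to cysteine. It had 0 reads in all 3 AG libraries, 47.8, 4.27 and 11.8 normalized reads in BS, and 5.53, 29.5 and 13 in OB. Every tumour library held some Cbs, with BS_287 the highest. Cbs averaged 16 ± 12.3 in OB and 21.3 ± 23.3 in BS, at least 5.51-fold and at least 7.32-fold higher than a floor of 3 reads per AG library. The differences of 3.82 ± 0.83 in OB and 3.90 ± 0.83 in BS passed (limma adjusted p = 0.00818 and 0.00763). Only 1 row of Cbs, of 3 annotated transcripts, is in the table.

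Aldh1l1, the cytosolic formyltetrahydrofolate dehydrogenase by which astrocytes are often recognised, could not be judged. It had 5, 5.91 and 5.44 normalized reads in AG, 0.839, 1.07 and 2.96 in BS, and 0, 0 and 2.17 in OB. The AG values lay above every tumour value, but no library reached the filter of 10, so it was not tested with the others. The ratio of OB to AG reads was 0.128 with an exact 95% interval of 0.0144 to 0.54, which covers counting error only. In a fit of all genes without the filter, Aldh1l1 fell in OB by 2.13 (limma adjusted p = 0.0209) and had -1.38 in BS, which did not pass (limma adjusted p = 0.0998). Its mitochondrial relative Aldh1l2, with 1 transcript, stood at 675, 667 and 684 in AG, 1205, 2341 and 1105 in BS and 10454, 1554 and 2820 in OB. Aldh1l2 rose by 2.40 in OB (limma adjusted p = 0.0167, but up to 0.0566 without 1 of the AG libraries) and had 1.11 in BS, which did not pass (limma adjusted p = 0.197).

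Around Cbs and Aldh1l1, 14 of 17 listed genes of folate, serine and sulfur metabolism were tested. In OB 5 rose and 1 fell, in BS 2 rose and 1 fell, and the medians were 0.75 and 0.78. The OB count lies somewhat above the 34.9% of all genes that passed there, and the BS count under the 35.1%. Gldc, the decarboxylase of the glycine cleavage system, which is strong in astrocytes and radial glia, went from 258, 212 and 253 normalized reads in AG to 2544, 5313 and 4369 in BS and to 623, 3661 and 3375 in OB. It rose by 3.04 in OB (limma adjusted p = 0.00634) and 4.01 in BS (limma adjusted p = 0.00158), and OB_257 was the lowest tumour library. Psph, the last enzyme of serine synthesis, rose in OB (1.95, limma adjusted p = 0.0256), and Shmt1 rose in BS (1.40, limma adjusted p = 0.00112). Gclm, a subunit of the enzyme that starts glutathione synthesis, fell by 1.34 in OB and 1.59 in BS. The Psph call ended without any 1 AG library (limma adjusted p up to 0.0778), and the OB count of the list was then 2 in place of 6. Without OB_257 and BS_287, 4 rose and 1 fell in BS.

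For each of the 9 genes tested the nearest profile belonged to a gene outside the 10. The nearest profiles to Glul were Abhd11os (0.33) and 4430402I18Rik (0.36), low transcripts highest in OB_295, and those nearest to Cbs were 3110070M22Rik (0.49) and Dchs1 (0.53). Aldoc lay nearest to Colgalt2 (0.57) and Kcnmb4 (0.58), Apoe to 2810029C07Rik (0.18) and Tmem198b (0.21), and Slc1a3 to the glucose transporter Slc2a3 (0.51) and to Acsbg1. All distances are root mean squares of centred log2 values over the same 9 libraries, and a short distance is easy to reach for a gene such as Apoe that varies little.

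Marker genes of astrocytes beyond the 10 were also higher in the tumour cells where they passed, with 1 exception in OB. Of 23 listed surface and marker genes 11 were tested; 5 rose and 1 fell in OB, and 5 rose and 0 fell in BS, with medians of 3.32 and 2.82. Gpr37l1, a receptor of astrocytes and oligodendrocyte precursors, went from 0.278 in AG to 697 in BS and 1214 in OB on average, and rose by 8.13 in OB (limma adjusted p = 0.0164) and 7.25 in BS (limma adjusted p = 0.0267). S100b rose in OB (6.13, limma adjusted p = 0.0265) and stood at 5.87, 87.5 and 639 in BS against 25, 25.6 and 27.2 in AG. Htra1, a secreted protease, fell in OB (-2.41, limma adjusted p = 0.0267). The OB count was 3 without AG_2, AG_3 or OB_295, and the BS count 3 without any 1 AG library or BS_295. Single calls that ended were those of Gpr37l1 (without AG_2, AG_3 or OB_295 in OB, and without any AG library, BS_295 or BS_296 in BS), and of S100b and Htra1 (without any AG library, OB_257 or OB_295), with limma adjusted p up to 0.0885. Gfap reached 91.4 and 45.3 in BS_287 and BS_296 and at most 3.26 in OB, and was not tested. Several of these genes are also made by oligodendrocyte precursors and radial glia, of whose listed genes 8 of 9 and 4 of 7 rose in OB and 6 of 9 and 4 of 7 in BS. Of the radial glia genes 1 fell in each comparison, Vcam1, an adhesion protein that fell by 8.49 in OB and fell by 6.53 in BS. Of the genes tested, 7 of 9 of oligodendrocyte precursors, 2 of 7 of radial glia and 5 of the 11 surface and marker genes reached 10 normalized reads only in tumour libraries and could only be higher there.

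**Figure D5:**
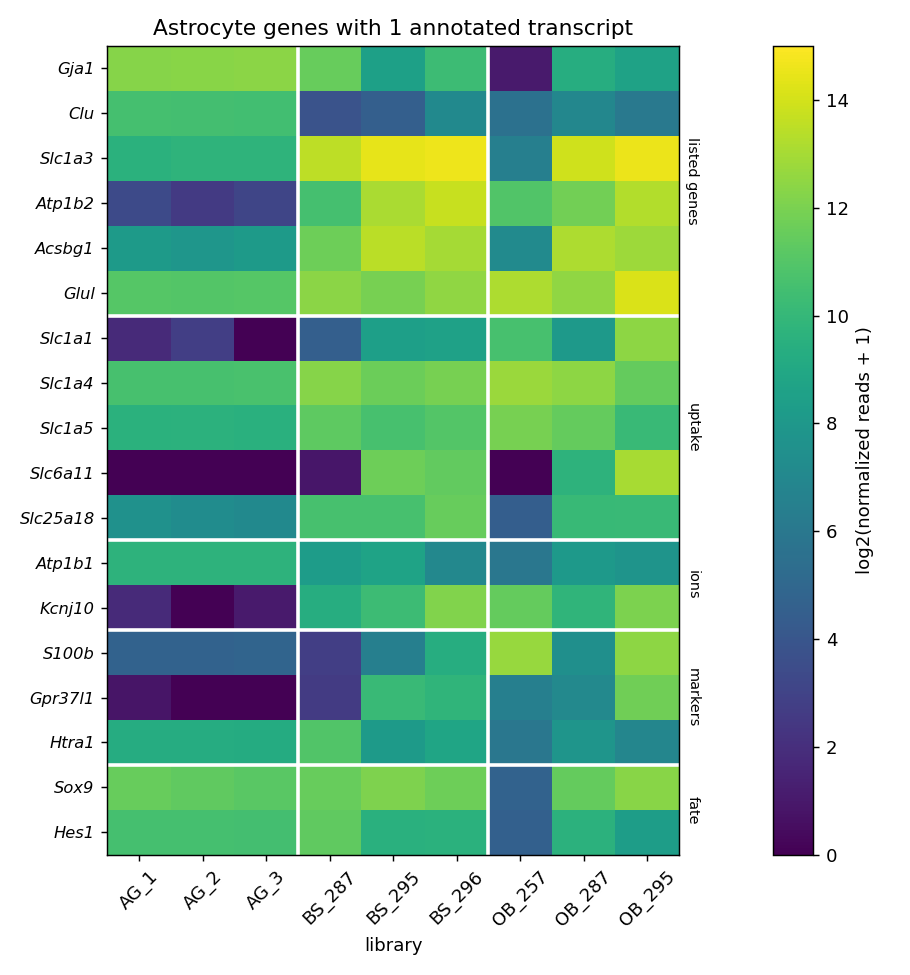
Log2(normalized reads + 1) of 18 tested genes with 1 annotated transcript, by library: 6 of the 10 astrocyte genes at the top, then other genes of uptake, ion handling, markers and fate. White lines part the 3 groups and the lists. AG columns are dark for Atp1b2 and Kcnj10 and bright for Gja1 and Clu, and the OB_257 column is darker than its neighbours for Gja1, Slc1a3, Acsbg1, Slc25a18, Sox9 and Hes1.

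Factors that direct astrocyte fate showed little that passed: of 7 tested genes 0 rose and 1 fell in OB (Nfix, -1.87, limma adjusted p = 0.00664), and 0 moved in BS. The medians were -1.87 in OB and -0.75 in BS. Nfix has 16 annotated transcripts. Without OB_257 and BS_287, 1 rose and 4 fell in OB, and 1 rose and 3 fell in BS, and without OB_287 3 fell in OB. Without BS_287, and without BS_296, 1 fell in BS. Secreted factors that organise synapses fell more often than they rose: of 5 tested, 1 rose and 3 fell in each comparison. Thbs2, a thrombospondin, went from 10244 in AG to 84.7 in BS and 12.7 in OB on average. Thbs2 fell by 10.63 in OB (limma adjusted p = 0.00123), Tgfb1 fell by 8.94 and Gpc4 fell by 3.55, while Sparcl1, or hevin, rose by 3.87 (limma adjusted p = 0.00675). Sparcl1 has 3 annotated transcripts, had 0 reads in AG and averaged 15.1 in OB. It was 1 of 2 genes in this list that reached 10 normalized reads only in tumour libraries and could only be higher there. Without OB_257 or OB_287 Sparcl1 failed the filter and was not tested. The Gpc4 call in OB ended without any 1 AG library (limma adjusted p up to 0.056).

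Listed genes of reactive astrocytes fell more often than they rose, but the filter bears on this count. Of the genes tested, 3 of 9 common to reactive states, 1 of 5 of the A1 state and 2 of 8 of the A2 state reached 10 normalized reads only in AG libraries and could only be lower in the tumours. Of 9 tested genes common to reactive states 1 rose and 5 fell in OB, and 1 rose and 6 fell in BS. Of 5 genes of the A1 state 0 rose and 4 fell in OB, and 0 rose and 3 fell in BS. Of 8 genes of the A2 state 0 rose and 6 fell in OB, and 0 rose and 7 fell in BS. Lcn2, a secreted iron-binding protein, went from 929 in AG to 0.328 in BS and 0.731 in OB on average, and fell by 9.15 in OB (limma adjusted p = 4e-06), as 1 of the genes that were tested only through AG. Steap4 fell by 8.23 in OB, and Ptgs2, the inducible cyclooxygenase, fell by 8.55 (limma adjusted p = 0.00101). Cd14 fell by 8.09 in OB and Gbp2 by 5.88. S1pr3, a lipid receptor, rose by 3.43 in OB and 2.07 in BS. It is the 1 gene common to reactive states that rose. S1pr3 reached 10 normalized reads only in tumour libraries and could only be higher there. Genes high only in AG fail the filter once an AG library is left out, so fewer were tested then: in OB 1 rose and 2 fell of 6 genes common to reactive states, 0 or 1 fell of the A1 genes, and in BS 2 of 6 common genes, 1 A1 gene and 3 of 6 A2 genes passed. Without OB_287, 1 A1 gene fell in OB. The Gbp2 call in OB ended without AG_2 or AG_3 (limma adjusted p up to 0.0523), and that of S1pr3 in BS without any AG library, BS_287 or BS_296 (up to 0.146). Fibroblasts and muscle-like cells also express several of the listed genes. The fibroblast sum in AG, nearly all of it Col1a1, is given above, and the part of such cells in these values was not tested.

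The remaining markers of other cells were read for both comparisons. Of 4 tested genes of neurons 3 rose and 0 fell in OB and in BS, among them Stmn3, which stood at 0.884 in AG and 317 and 446 on average in BS and OB. Of 5 tested genes of mature oligodendrocytes 3 rose in OB and 2 in BS, and 0 fell. Of these, 2 of the 4 and 4 of the 5 reached 10 normalized reads only in tumour libraries and could only be higher there. Of 5 genes of pericytes and smooth muscle 1 rose (Cspg4, also made by oligodendrocyte precursors) and 3 fell in each comparison, and of 5 fibroblast genes 0 rose and 4 fell in each. Of 3 ependymal genes 0 rose in either, and 2 fell in OB and 3 in BS, with Foxj1 at 2313 in AG. Of 2 endothelial genes 1 fell in each comparison (Flt1). Flt1, 2 of the 5 fibroblast genes (Col1a2 and Dcn) and 1 of the 3 ependymal genes (Tmem212) reached 10 normalized reads only in AG libraries. These could only be lower in the tumours, and the fibroblast list gene Pdgfra, which reached it only in tumour libraries, could only be higher. Of 13 microglia genes 3 were in the table and 2 were tested; 1 fell in both, and Csf1r reached at most 8.87. Without an AG library, 1 fibroblast gene of 3 tested, 1 ependymal gene of 2 and 0 endothelial genes of 1 fell, since genes high only in AG then failed the filter. Without OB_257, 1 endothelial gene rose and 1 fell in OB.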

How the data were processed

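Messenger RNA libraries of 9 samples (AG, BS and OB, 3 each) were prepared with a stranded TruSeq kit, per the labels' protocols. Build mm9 and HISAT2 2.1.0 are listed per the submitters' processing notes, as are DESeq2 1.20.0, bcl2fastq 1.8.4 and, from Subread 1.6.2, featureCounts, without roles. Not given in the sources used here are annotation, strand setting and the handling of reads shared by transcripts. In the table that was deposited, values are a signal: read counts per RefSeq transcript that the authors divided by 1 size factor per library (0.905 to 1.199). Whole reads were recovered for 100.0% of values within 0.05 reads. Rows were named from a RefSeq table (16202 of 16260) or GENCODE (41); 17 without a name were left out, and rows of a symbol were added.

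The main test was limma 3.58.1 (R 4.3.3) on log2(value + 1) of genes with 10 normalized reads in at least 3 libraries, with all groups in 1 fit, a variance trend, two-sided tests and Benjamini-Hochberg adjustment over 10576 genes within each comparison, called at an adjusted p under 0.05. On the recovered reads edgeR 4.0.16 (quasi-likelihood, TMM) called 3724 genes between OB and AG, 3679 between BS and AG and 0 between OB and BS; DESeq2 1.42.0 called 4281, 4270 and 233. Other alternatives were pseudocounts, filters, upper-quartile and quantile scaling, no trend, fits of 2 groups, the highest row per symbol, each library left out, OB_257 and BS_287 left out together, and a block on the title numbers.

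The 10 genes, the 12 lists of astrocyte functions and states, the 9 lists of cell markers and the 6 families were chosen with earlier results of these data known. Named were all 10 genes, up to 3 called genes per list and direction, relatives or markers near 0, and the 2 genes nearest in profile. Floors are 3 reads, and exact (Clopper-Pearson) 95% intervals cover counting error only. Promoter windows are from RefSeq, build GRCm38.p6; no other coordinates are given, as the table rests on mm9. A few genes of the lists are not reported here by name.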

Additional observations from a re-analysis of the deposited data

Results flagged for a closer look

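Among the 6 tumour libraries of both groups, OB_257 held the lowest value of Gja1 (1.11 normalized reads), of Slc1a3 (88.4) and of Acsbg1 (146), each so far from the next library that its gap exceeded Dixon's 95% critical value of 0.625 on the log2 scale. The gap was 0.716 of the whole range for Gja1, 0.857 for Slc1a3 and 0.721 for Acsbg1. The next lowest tumour values were 369 for Gja1 in BS_295, 11447 for Slc1a3 in BS_287 and 3324 for Acsbg1 in BS_287. Chance flags about 1 in 20 such sets of values, and all 10 genes were looked at, from the low and from the high side. No other library was flagged for any of the 10 genes. In the same library the sum of mature oligodendrocyte genes was the highest of the 6 tumour libraries (28808). The sum of radial glia genes was the lowest (8765). The part of either in these values was not tested.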

How the results depend on the processing

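In OB against AG, 144 of 160 values of the 9 genes under the alternatives kept their direction and side of the threshold, 10 newly passed and 6 no longer passed; in BS against AG these were 143, 6 and 11 of 160. No value reversed in either. Gja1 in OB was also not called without a variance trend (limma adjusted p = 0.0514) or in a fit of OB and AG alone (0.0692), and over all its alternatives its difference ran from -7.48 to -3.33. The count of genes passing ran from 4 of 7 tested (a filter of 50 normalized reads) to 9 of 9 in OB, and from 4 to 8 in BS, where a fit of BS and AG alone called 8. Each library left out gave 5 to 9 in OB and 4 to 5 in BS.

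Over all genes, leaving out 1 library gave 2086 to 3719 calls in OB against AG, 2001 to 3562 in BS against AG and 0 to 67 in OB against BS; the lowest counts came without an AG library. Upper-quartile scaling shifted the median of all genes by 0.14 in OB and 0.17 in BS; no call of the 9 genes changed. The balance of calls turned with it: 1687 upward and 2008 downward in OB became 2021 and 1759, and 1652 and 2060 in BS became 2032 and 1723, and with quantile scaling, edgeR and DESeq2 upward calls were also the more numerous.

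In OB against BS 0 of the 9 genes passed under every alternative. Over all genes 4 passed with a pseudocount of 0.5, 6 with 5, 3 with quantile scaling, 2 without a trend, 233 with DESeq2 and 63 without OB_257 and BS_287. Of 169 values 18 reversed. Slc1a3 became 0.03, Atp1b2 0.07, Acsbg1 0.26, Apoe 0.35 and Cbs 0.48 without OB_257. Aldoc became -0.04, Apoe 0.17 and Cbs 0.78 without BS_287, Apoe 0.59 and Cbs 1.33 without both, and Atp1b2 0.16 without BS_296. Apoe was 0.04 with its highest row and Cbs 0.09 with quantile scaling. With the replicate block of title numbers, which rests on 2 pairs, Slc1a3 was 0.25, Atp1b2 0.70, Acsbg1 0.40, Apoe 0.31 and Cbs 0.37, with 0 calls; same-numbered libraries deviated together with r = 0.07 and 0.3, and the labels do not say what the numbers mark. Over the fits without 1 library, Slc1a3 went from -4.00 to 0.03, Aldoc from -0.04 to 1.28, Atp1b2 from -1.41 to 0.16, Acsbg1 from -2.71 to 0.26, Apoe from -0.35 to 0.35 and Cbs from -0.83 to 0.78. The cause of these changes was not tested.

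With 3 libraries per group and 1 shared spread, the scatter of the tumour libraries enters every comparison. Aldoc, Apoe, Cbs and Aldh1l1 rest on few reads, and their levels say little about expression.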
